A study of Rattus norvegicus with 6 samples.

Results

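Neuropeptide precursors are the long proteins from which neurons cut their signaling peptides, and 10 of their genes were followed here across cultured rat retinal ganglion cells (RGCs): Avp, Trh, Penk, Sst, Npy, Tac1, Gal, Adcyap1, Cartpt and Vgf. All probe sets whose platform annotation gives one of these symbols alone were taken, which gave 11 probe sets for the 10 genes, of 31042 probe sets and 14217 named genes on the array, and every gene was measured. Each probe set sums up several short oligonucleotides that match one transcript, and Adcyap1 has 2. The genes were selected on measured values of these same arrays, partly because Avp and Trh differed between RGCs given Gpc4 and RGCs cultured alone. The Gpc4 and TSP1 values below are therefore a description, and their p-values are not read as tests. There were 6 arrays: 2 for RGCs given glypican 4 (Gpc4), 2 for RGCs given thrombospondin 1 (TSP1) and 2 for RGCs with no added protein (Alone). The neurons were purified from rat retina at postnatal day 6 and kept for 12 days in a medium that, for all groups, held BDNF and CNTF, and forskolin by the methods. Gpc4 and TSP1, both secreted by astrocytes and both able to induce synapses between RGCs, were added to the medium for 12 h. The Gpc4 was a His-tagged protein purified from conditioned medium of HEK293, a line of human embryonic kidney cells, and the TSP1 was a recombinant mouse protein, so neither treatment is the release of the endogenous protein by astrocytes. Each array carried RNA of 2 pooled wells, and the methods state 2 separate RGC cultures. The sample labels give only the replicate numbers 1 and 2, which are read here as culture 1 and culture 2.

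A neuropeptide precursor enters the secretory pathway, is cleaved at pairs of basic residues by prohormone convertases, is trimmed by carboxypeptidase E and is often amidated, and its peptides are stored in dense-core vesicles and released to act on G-protein-coupled receptors until extracellular peptidases remove them. In the retina most neuropeptides are known from amacrine cells. Among ganglion cells, PACAP, the product of Adcyap1, is known from the melanopsin-containing cells that project to the suprachiasmatic nucleus, and in the mouse the CART peptide of Cartpt marks direction-selective ganglion cells.

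Values are log2 RMA expression values, in which a difference of 1 is a doubling of the signal. The median of an array lay between 5.96 and 5.99. No call of presence or absence comes with the values, and this median therefore served as the line between dim and bright. Retinal ganglion cell markers were bright throughout, with all 12 of 12 measured markers above the median on all 6 arrays. Their summed linear signal (1 probe set a gene) was 81410 and 81520 with Gpc4, 81240 and 81900 with TSP1 and 80950 and 82330 in Alone. Of the amacrine markers, 4 of 13 were above the median on all arrays, and of the photoreceptor markers 0 of 6 were. The amacrine sums were 2656 and 2866 with Gpc4, 2669 and 2878 with TSP1 and 2696 and 2842 in Alone. A single bright marker, Calb2, carried much of them, with a mean log2 value of 10.965 with Gpc4, 10.95 with TSP1 and 10.935 in Alone.

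All 11 neuropeptide precursor probe sets were above the array median on all 6 arrays, as were 47.7% of all probe sets. In Alone, the signal of the dimmest of them, Sst, exceeded that of 56.0% of all probe sets, and the signals of Tac1, Vgf and Cartpt exceeded that of 99.2%, 99.7% and 99.9%. Binding differs from one probe set to another, and these positions describe each signal without ranking the genes. The genes differed in how far they moved over the 6 arrays, with a span of 0.08 for Vgf, 0.18 for Tac1 and for Cartpt, 0.31 to 0.61 for Gal, Sst, both Adcyap1 probe sets and Npy, 1.11 for Penk, 1.58 for Trh and 2.16 for Avp (log2 units). In the plot of single arrays, the Gpc4 arrays of Avp and Trh stand more than 1 log2 unit above the other 4.

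**Figure D1:**
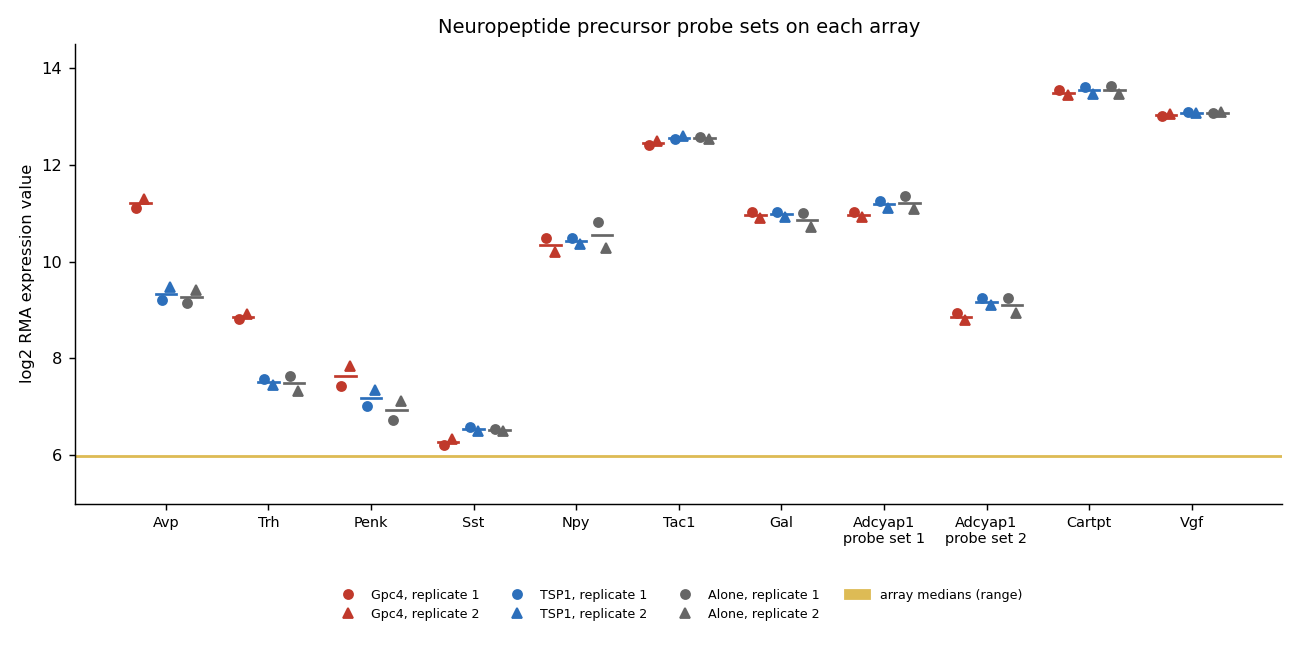
Log2 RMA expression value (vertical axis) of the 11 neuropeptide precursor probe sets (horizontal axis) on each array; red is Gpc4, blue TSP1 and gray Alone, circles are replicate 1, triangles replicate 2, short lines group means, and the yellow band the range of the array medians (5.96 to 5.99). For Avp the Gpc4 arrays lie at 11.12 and 11.30 and the other 4 arrays between 9.14 and 9.48, whereas Vgf, Cartpt and Tac1 hold nearly the same value on all 6 arrays.

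Avp encodes the precursor of vasopressin, the antidiuretic peptide of the hypothalamus, together with its carrier neurophysin. Its log2 value was 11.12 and 11.30 with Gpc4, 9.20 and 9.48 with TSP1 and 9.14 and 9.41 in Alone. Both Gpc4 arrays lay above all 4 others, and the TSP1 and Alone arrays were interleaved. The mean was 11.21 ± 0.13 with Gpc4 and 9.28 ± 0.19 in Alone (SD, n = 2 each), a log2 difference of 1.94 (SE 0.14, 95% interval 1.62 to 2.25) or 3.82-fold. The difference was 1.98 in culture 1 and 1.89 in culture 2, so Avp was higher with Gpc4 by nearly the same amount in both cultures. In bulk RNA of this kind, more expressing cells and more RNA per cell cannot be told apart.

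Trh encodes a precursor that holds several copies of thyrotropin-releasing hormone, the tripeptide that drives thyrotropin release from the pituitary. Its log2 value was 8.82 and 8.91 with Gpc4, 7.57 and 7.46 with TSP1 and 7.64 and 7.33 in Alone. Again both Gpc4 arrays lay above all others, and the TSP1 values fell between the values of Alone. The mean was 8.87 ± 0.06 with Gpc4 and 7.49 ± 0.22 in Alone (SD, n = 2 each), a log2 difference of 1.38 (SE 0.12, 95% interval 1.10 to 1.66) or 2.60-fold. The cultures differed more than for Avp, with 1.18 in culture 1 and 1.58 in culture 2, as the Alone arrays of Trh lay 0.31 apart and the Gpc4 arrays 0.09.

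Penk encodes proenkephalin, the source of the opioid peptides Met- and Leu-enkephalin, and it had a smaller difference than Avp and Trh. Its log2 value was 7.44 and 7.84 with Gpc4, 7.01 and 7.35 with TSP1 and 6.73 and 7.12 in Alone. The Gpc4 arrays lay above the Alone arrays, and within each culture the order was Gpc4, TSP1, Alone. The log2 difference between Gpc4 and Alone was 0.72 (SE 0.19, 95% interval 0.28 to 1.15) or 1.64-fold, with 0.71 in culture 1 and 0.72 in culture 2. Since replicate 2 was higher in every group, by 0.40 with Gpc4, 0.34 with TSP1 and 0.39 in Alone, the spread between cultures entered the interval, which was 0.52 to 0.91 with the replicate number as a block. The summed linear signal of 6 fibroblast markers was also higher in culture 2 in every group, with 464.5 and 827.6 on the Gpc4 arrays, 299.3 and 512.1 on the TSP1 arrays and 378.2 and 1010 on the Alone arrays (replicates 1 and 2). The part of such cells in the Penk signal was not tested.

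The remaining genes lay close to Alone. Sst, whose peptide somatostatin inhibits hormone and transmitter release, was 6.21 and 6.33 with Gpc4, 6.58 and 6.50 with TSP1 and 6.54 and 6.51 in Alone, a log2 difference of -0.26 between Gpc4 and Alone (95% interval -0.47 to -0.05). Both Gpc4 arrays lay below the 4 others, and the TSP1 and Alone arrays overlapped. Adcyap1 was 11.02 and 10.93 with Gpc4, 11.25 and 11.12 with TSP1 and 11.36 and 11.08 in Alone by its first probe set, and 8.94 and 8.79, 9.25 and 9.10, and 9.26 and 8.94 by its second. Both probe sets gave a similar difference between Gpc4 and Alone, -0.25 and -0.24, although the second gave a lower signal and had the value 8.94 on a Gpc4 and on an Alone array.

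Npy, the precursor of the widespread inhibitory peptide neuropeptide Y, was 10.50 and 10.21 with Gpc4, 10.50 and 10.36 with TSP1 and 10.82 and 10.29 in Alone, and its groups overlapped. Gal, the precursor of galanin, a peptide known to be induced in injured neurons, was 11.03 and 10.91 with Gpc4, 11.03 and 10.93 with TSP1 and 11.00 and 10.72 in Alone. The log2 difference between Gpc4 and Alone was -0.20 for Npy and 0.11 for Gal, and the Alone arrays themselves lay 0.53 apart for Npy and 0.28 for Gal.

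Tac1 gives rise to the tachykinins substance P and neurokinin A, and was 12.41 and 12.50 with Gpc4, 12.54 and 12.59 with TSP1 and 12.58 and 12.54 in Alone. Cartpt was 13.54 and 13.45 with Gpc4, 13.61 and 13.47 with TSP1 and 13.63 and 13.46 in Alone. Vgf encodes a neurotrophin-responsive granin-like protein that is itself cut into peptides, and was 13.01 and 13.06 with Gpc4, 13.09 and 13.07 with TSP1 and 13.07 and 13.09 in Alone. Their log2 differences between Gpc4 and Alone were -0.11, -0.05 and -0.05, in the order given. For Vgf the Gpc4 arrays lay below the Alone arrays by as little as 0.01, the step to which the values are rounded.

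Over all 11 probe sets, the median log2 difference between Gpc4 and Alone was -0.05, and over all 31042 probe sets it was -0.005. By limma, which fits each probe set and moderates its variance with that of all others (adjusted p under 0.05, Benjamini-Hochberg over all probe sets), 2 of the 11 passed between Gpc4 and Alone, Avp and Trh, where 0.0838% of all probe sets passed. With the replicate number as a block, Penk passed too, which made 3 of 11, where 0.206% of all did. Leaving out 1 array ended the limma call of Trh in 5 of 6 fits and of Avp in 3, and the methods' t-test called 0 of 11 after Benjamini-Hochberg adjustment. The arrays of Gpc4 and Alone did not overlap for 7 of the 11, 3 higher (Avp, Trh and Penk) and 4 lower (Sst, Tac1, the first Adcyap1 probe set and Vgf), where 35.0% of all probe sets did not overlap. The genes were chosen with this contrast known, so nothing is read from these counts.

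The choice of the genes rested only partly on Gpc4 against Alone and used measured values of these same arrays. The difference between TSP1 and Alone, which shares the Alone arrays, is therefore not independent of that choice. Its counts and p-values are given as a description, and nothing is concluded from them. None of the 11 probe sets passed by limma, and 0.0% of all probe sets did; at an unadjusted p under 0.05 the count was 0 of 11 by limma and 0 of 11 by the methods' t-test, where 4.4% and 4.13% of all probe sets were below it. With the replicate block 0 of 11 passed, where 0.0129% of all did, and the TSP1 and Alone arrays did not overlap for 0 of 11, where 29.8% of all did not. The largest difference was at Penk, 0.26 on the log2 scale (95% interval -0.18 to 0.69, limma adjusted p = 0.985). It was 0.28 in culture 1 and 0.23 in culture 2, and with the replicate block the 95% interval was 0.06 to 0.45 and the limma adjusted p was 0.703. For Avp the difference was 0.07 (95% interval -0.25 to 0.38, limma adjusted p = 0.988) and for Trh it was 0.03 (95% interval -0.25 to 0.31, limma adjusted p = 0.993). The narrowest interval of the 11 was that of Vgf (-0.19 to 0.19), and the ends of the widest were -0.54 at Npy and 0.69 at Penk, so the precision differed from gene to gene. The p-values without the block rest on the spread between the 2 arrays of a group, moderated by that of all probe sets. Those with the block rest on the spread left after the replicate term. As the arrays come from 2 cultures, neither measures the spread over further cultures.

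**Figure D2:**
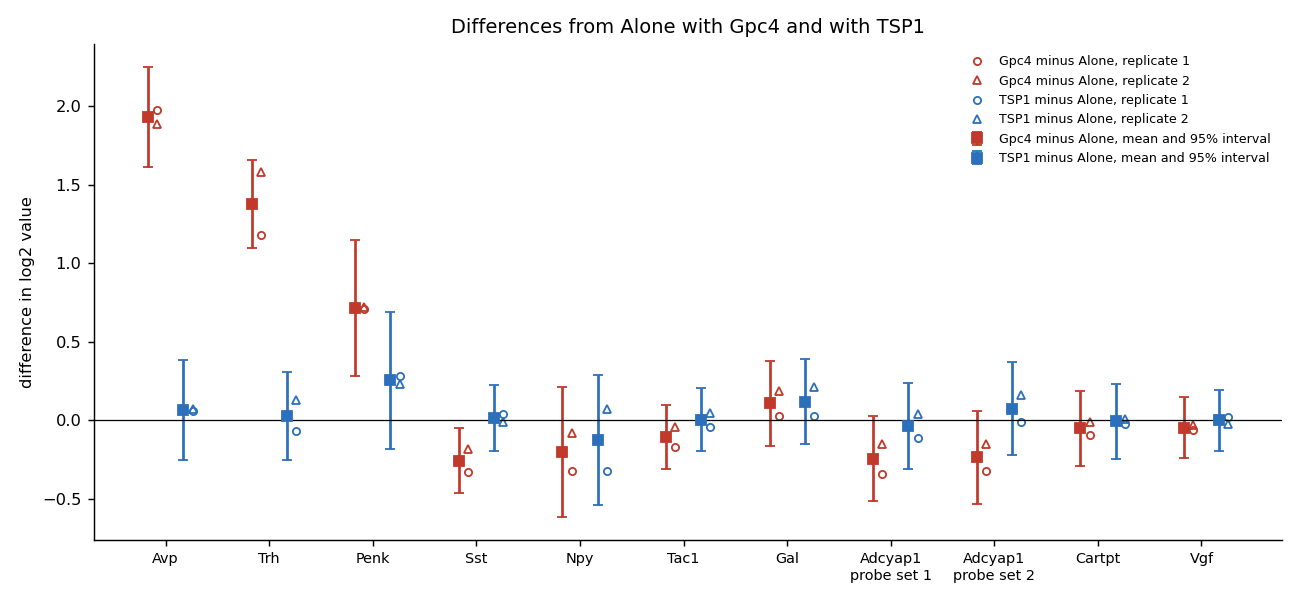
Log2 difference from Alone (vertical axis) of each neuropeptide precursor probe set (horizontal axis) with Gpc4 (red, left) and with TSP1 (blue, right); filled squares are means with their 95% limma intervals, and open circles and triangles the differences within replicates 1 and 2. The Gpc4 means of Avp (1.94), Trh (1.38) and Penk (0.72) lie away from 0, and every TSP1 interval includes 0.

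Between Gpc4 and TSP1 themselves, the log2 difference was 1.87 for Avp, 1.35 for Trh and 0.46 for Penk, with 1.92, 1.25 and 0.43 in culture 1 and 1.82, 1.45 and 0.49 in culture 2. Here too 2 of 11 passed by limma, Avp and Trh, where 0.0612% of all probe sets did, and with the replicate block 2 of 11, where 0.258% of all did. These values rest on the same Gpc4 arrays as those against Alone and add no separate evidence.

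The genes were also compared between the 2 cultures, a comparison that was picked after the values had been seen. Penk differed most between the cultures, with culture 2 higher than culture 1 by 0.38 (95% interval 0.22 to 0.54, limma adjusted p = 0.0902), followed by Npy, lower in culture 2 by 0.32 (95% interval of the log2 difference -0.53 to -0.11, limma adjusted p = 0.262), and Avp, higher by 0.24 (95% interval 0.08 to 0.41, limma adjusted p = 0.278). None of the 11 passed by limma, where 0.561% of all probe sets did, although the 95% interval left out 0, which is an unadjusted p under 0.05, for 4 of them (Penk, Npy, Avp and the second Adcyap1 probe set), where 11.3% of all probe sets were under that unadjusted threshold. In all 3 groups alike, Avp and Penk were higher in culture 2 and Npy, Gal, both Adcyap1 probe sets and Cartpt were lower, which is 7 of 11 probe sets, where 31.4% of all probe sets had 1 direction in all 3 groups. Trh had no common direction, with 0.09 with Gpc4, -0.11 with TSP1 and -0.31 in Alone.

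**Figure D3:**
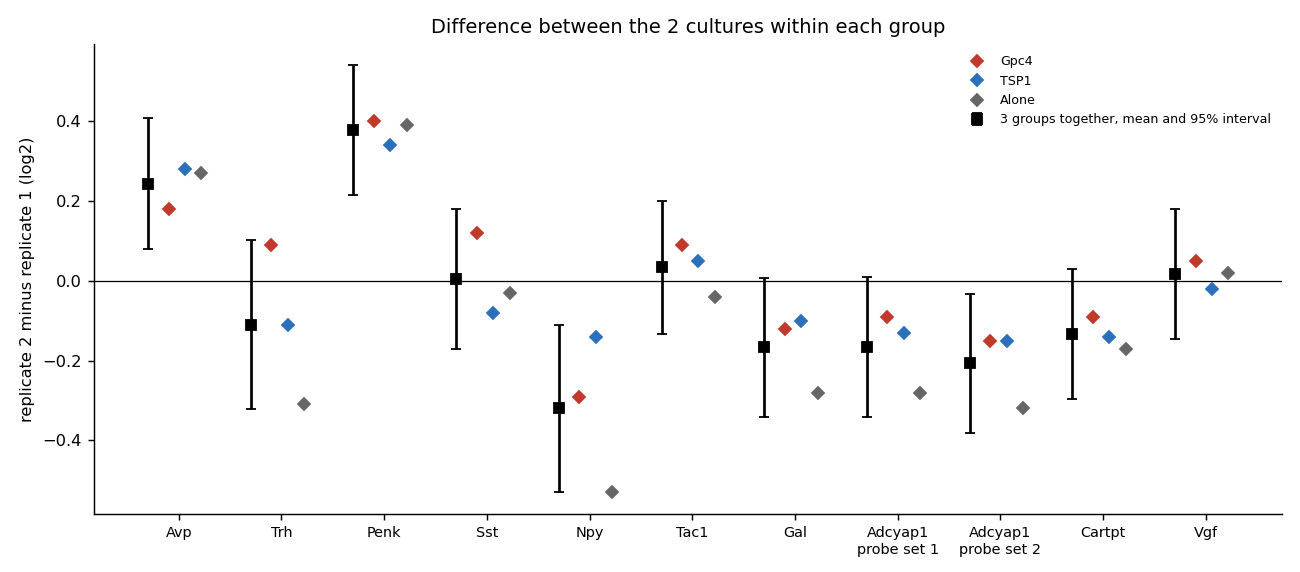
Replicate 2 minus replicate 1 in log2 units (vertical axis) for each neuropeptide precursor probe set (horizontal axis); black squares are the mean over the 3 groups with its 95% limma interval, and diamonds the single groups (red Gpc4, blue TSP1, gray Alone). Penk lies at 0.38 with its 3 groups between 0.34 and 0.40, and Npy at -0.32 with its groups between -0.53 and -0.14.

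The promoters of Avp and Trh are shown because these genes differed together between Gpc4 and the other arrays. The sequences (RefSeq, build GRCr8, 250 bases before to 50 after the annotated start, 5′ to 3′ on the gene's strand) lie on the minus strand at chr3:138248473-138248772 for Avp and chr4:126301713-126302012 for Trh. Capitals mark 3 motifs, each of which reads alike on both strands: CACGTG (an E-box), GGCGCC (a GC-rich site that SMAD proteins bind in other genes) and TGACGTCA (the cyclic AMP response element, CRE).
Avp: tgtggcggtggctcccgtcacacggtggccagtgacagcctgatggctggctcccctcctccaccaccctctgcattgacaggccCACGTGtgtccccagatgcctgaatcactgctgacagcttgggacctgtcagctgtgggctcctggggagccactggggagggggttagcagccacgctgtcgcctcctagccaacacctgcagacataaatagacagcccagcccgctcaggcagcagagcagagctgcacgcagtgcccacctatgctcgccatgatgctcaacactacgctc
Trh: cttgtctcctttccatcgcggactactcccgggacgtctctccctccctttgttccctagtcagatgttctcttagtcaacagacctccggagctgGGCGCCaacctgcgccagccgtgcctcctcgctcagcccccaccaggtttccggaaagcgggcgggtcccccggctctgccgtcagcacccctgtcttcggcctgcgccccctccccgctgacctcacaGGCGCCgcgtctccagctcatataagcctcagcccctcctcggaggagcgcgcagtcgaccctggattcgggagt

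The Avp window holds 1 E-box, 165 bases before the start, and no GGCGCC. The Trh window holds 2 GGCGCC sites, 154 and 25 bases before the start, and no E-box, so the 2 windows share none of the 3 motifs. Of 33469 rat promoters of this length, 6.42% hold CACGTG, 11.0% GGCGCC and 1.83% TGACGTCA. Promoters were read for 9 of the 10 genes (not Penk), and each motif occurred in 3 of these 9: CACGTG in Avp, Tac1 and Vgf, GGCGCC in Trh, Sst and Npy, and TGACGTCA in Cartpt, Vgf and Sst. The windows of Gal and Adcyap1 held none of them. Each window rests on the annotated start, and sequence outside it was not searched. No match overlapped another. A match in letters is a description and not a binding site.

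The CRE windows of Cartpt, Vgf and Sst are shown because this was the rarest of the 3 motifs among all promoters (RefSeq, build GRCr8, 5′ to 3′ on the gene's strand, with the CRE in capitals). The regions are chr2:32991361-32991386 for Cartpt and chr12:25277094-25277119 for Vgf, both on the minus strand, and chr11:90461539-90461564 for Sst on the plus strand.
Cartpt: ggcgggcatTGACGTCAaacggcagc
Vgf: aatgaacatTGACGTCAatggggcgg
Sst: ctccttggcTGACGTCAgagagagag

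The CRE begins 142 bases before the annotated start in Cartpt, 90 before it in Vgf and 2 bases after it in Sst. Whether transcription begins at the annotated starts was not tested. With Gpc4, the log2 difference from Alone was -0.05 for Cartpt, -0.05 for Vgf and -0.26 for Sst. A link between the CRE and these differences was not tested.

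The genes next to Avp and Trh in the RefSeq annotation were looked up after the values had been seen. Oxt, the oxytocin gene beside Avp, was dim, with a mean of 4.88 with Gpc4 and 4.94 in Alone (log2 difference -0.06, limma adjusted p = 0.962), and Ubox5 on the other side differed by 0.07 (limma adjusted p = 0.933). Beside Trh, Rbsn differed by -0.10 (limma adjusted p = 0.871) and Prickle2 by -0.09 (limma adjusted p = 0.902). Avp and Trh were chosen partly for their differences with Gpc4, so nothing is read from the smaller differences at their neighbors, and that contrast was not tested.

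The probe sets most like Avp, Trh and Penk over the 6 arrays were named by Pearson r among 180 named probe sets with a mean log2 value of at least 6 and a span of at least 1. The r is a description over the same 6 arrays, in which the Gpc4 arrays weigh most. For Avp they were Id2 (0.997), Id1 (0.997), Islr2 (0.993), Hes1 (0.992) and Smad9 (0.992). For Trh they were Fam167a (0.994), Id2 by another probe set (0.985), Smad9 (0.983), Nog (0.982) and Ifitm10 (0.981). For Penk they were Filip1l (0.976), Serpine2 (0.964), Klf10 (0.95), Emp1 (0.944) and Chst8 (0.926). Avp and Trh had r = 0.965 with each other, Avp and Penk 0.861 and Trh and Penk 0.741. The lists of Avp and Trh shared Id2 and Smad9, and Penk shared no gene with either. Avp and Trh were chosen partly for their Gpc4 values, so nothing is read from shared names.

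The rest of the pathway was followed in 5 lists, on the probe set of highest mean for each gene, and limma called none of their genes in Gpc4 against Alone, TSP1 against Alone or Gpc4 against TSP1, with or without the replicate block. At an unadjusted p under 0.05, limma and the methods' t-test gave counts of 0 to 2 and 0 to 2 genes a list between TSP1 and Alone, and of 0 to 2 and 0 to 3 between Gpc4 and TSP1, where limma put 4.51% and the methods' t-test 4.62% of all probe sets under it. Between Gpc4 and Alone, for which the counts follow list by list, 6.88% of all probe sets were under it by limma and 5.49% by the methods' t-test. Of 52 other neuropeptide precursors 41 were measured and 12 were bright on all arrays. The median log2 difference was -0.02 with Gpc4 and -0.04 with TSP1, and 1 of the 41 had an unadjusted p under 0.05 by limma and 2 by the methods' t-test with Gpc4. The largest difference was at Pdyn, the precursor of the opioid dynorphins, whose mean was 7.79 with Gpc4 and 7.35 in Alone (difference 0.44, SE 0.22, limma adjusted p = 0.761), and 7.11 with TSP1. It was 0.28 in culture 1 and 0.60 in culture 2, less even than for Penk, another opioid precursor. A dim second Pdyn probe set gave -0.04 between Gpc4 and Alone. Pomc, which was dim, and Pnoc, also precursors of the opioid family, differed by 0.215 and -0.12. Calcb and Npvf, both dim, differed by -0.30 and 0.29. The brightest of the list were Nts, the neurotensin precursor, at 13.04 with Gpc4 and 13.10 in Alone, Vip at 11.97 with Gpc4 and 12.07 in Alone, and Crh, the corticotropin-releasing hormone, at 10.42 with Gpc4 and 10.66 in Alone.

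Among the enzymes that mature the peptides, 16 of 17 were measured and 13 were bright (Pcsk1 was not analysed here). The median difference with Gpc4 was -0.01, and 3 of the 16 had an unadjusted p under 0.05 by limma and 1 by the methods' t-test. Cpe, the carboxypeptidase that trims the cut peptides, was 13.51 with Gpc4 and 13.54 in Alone, and Scg5, the 7B2 chaperone of prohormone convertase 2, was 12.52 with Gpc4 and 12.50 in Alone. The convertase gene itself, Pcsk2, was dim, at 5.34 with Gpc4 and 5.47 in Alone. The largest differences were at Cpd, a carboxypeptidase of the Golgi, -0.30 (SE 0.09, limma adjusted p = 0.613; -0.34 by a dim second probe set), Pcsk6, 0.29 (SE 0.11, limma adjusted p = 0.710), and Cpz, 0.27 and dim. Ctsl, a protease that can also cut precursors, was 12.80 with Gpc4 and 12.70 in Alone by its brighter probe set, a difference of 0.10, while a second probe set gave 0.41 (limma adjusted p = 0.364).

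Of 16 granins and other proteins of dense-core vesicles, 14 were measured and 12 were bright, with a median difference of -0.02 with Gpc4 and -0.02 with TSP1. Of the 14, 0 had an unadjusted p under 0.05 with Gpc4 by limma and 0 by the methods' t-test. Resp18 at 12.89 with Gpc4 and 12.87 in Alone, Syt4 at 12.67 and 12.71 in the same order and Scg2, the secretogranin II precursor, at 12.60 and 12.52 gave the highest signals. A second Syt4 probe set gave -0.36 between Gpc4 and Alone (limma adjusted p = 0.698), where the first gave -0.04. Among the probe sets of highest mean, Ptprn, a receptor-like protein of the vesicle membrane, differed most (-0.21, SE 0.09, limma adjusted p = 0.740), then Cadps, a priming factor for vesicle release (0.18, SE 0.09, limma adjusted p = 0.763), and Cadps2 (-0.16), which was dim. A second probe set of Hid1 gave -0.22 (limma adjusted p = 0.795), where its first gave 0.03.

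Of 27 receptors for the peptides of the 10 genes, 26 were measured and only 7 were bright on all arrays, with a median difference of -0.03 with Gpc4 and -0.02 with TSP1. With Gpc4, 2 of the 26 had an unadjusted p under 0.05 by limma and 2 by the methods' t-test. The vasopressin receptors and the measured TRH receptor, Trhr, were dim (Trhr2 was not analysed here), with means for Gpc4 and Alone of 4.80 and 4.98 at Avpr1a, 4.87 and 4.99 at Avpr1b, 4.41 and 4.55 at Avpr2 and 3.71 and 3.72 at Trhr. The opioid receptors Oprd1 and Oprm1, on which enkephalins act, were dim too, at 4.38 with Gpc4 and 4.32 in Alone and at 4.68 with Gpc4 and 4.78 in Alone. Values this low are not shown to be above background, so the array does not tell whether the RGCs carried these receptors. The bright receptor probe sets of highest mean were those of Adcyap1r1, the PACAP receptor, at 9.62 with Gpc4 and 9.42 in Alone, Npy1r, at 7.81 with Gpc4 and 8.08 in Alone, and Galr2, at 7.85 with Gpc4 and 7.91 in Alone. The other 3 Adcyap1r1 probe sets were dim. The largest differences were at Oprk1, the dynorphin receptor, 0.42 at a dim level (4.82 with TSP1, limma adjusted p with Gpc4 = 0.730), Npy1r, -0.27 (SE 0.10, limma adjusted p = 0.698), and Sstr3, -0.23 (SE 0.12, limma adjusted p = 0.763). The other Oprk1 probe sets, also dim, gave -0.01 and -0.02.

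All 13 of 13 genes for enzymes that degrade peptides outside or inside the cell were measured, and 8 were bright. The median difference was -0.09 with Gpc4 and -0.04 with TSP1, and 1 of the 13 had an unadjusted p under 0.05 by limma and 0 by the methods' t-test with Gpc4. Of the enzymes that can cleave TRH, Pgpep1, Trhde and Prep, none passed. Pgpep1 was 9.36 with Gpc4 and 9.15 in Alone (difference 0.22, SE 0.11, limma adjusted p = 0.755), and Trhde, which was dim, 5.64 and 5.46 (difference 0.18, SE 0.14, limma adjusted p = 0.844). With TSP1 they were at 9.33 and 5.79, also above Alone. Nln, the neurolysin gene, had the largest difference of the list, -0.30 (SE 0.09, limma adjusted p = 0.627), and Prep was 9.61 with Gpc4 and 9.71 in Alone (difference -0.10, limma adjusted p = 0.867). Ide, the insulin-degrading enzyme, was 10.02 with Gpc4 and 10.18 in Alone.

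**Figure D4:**
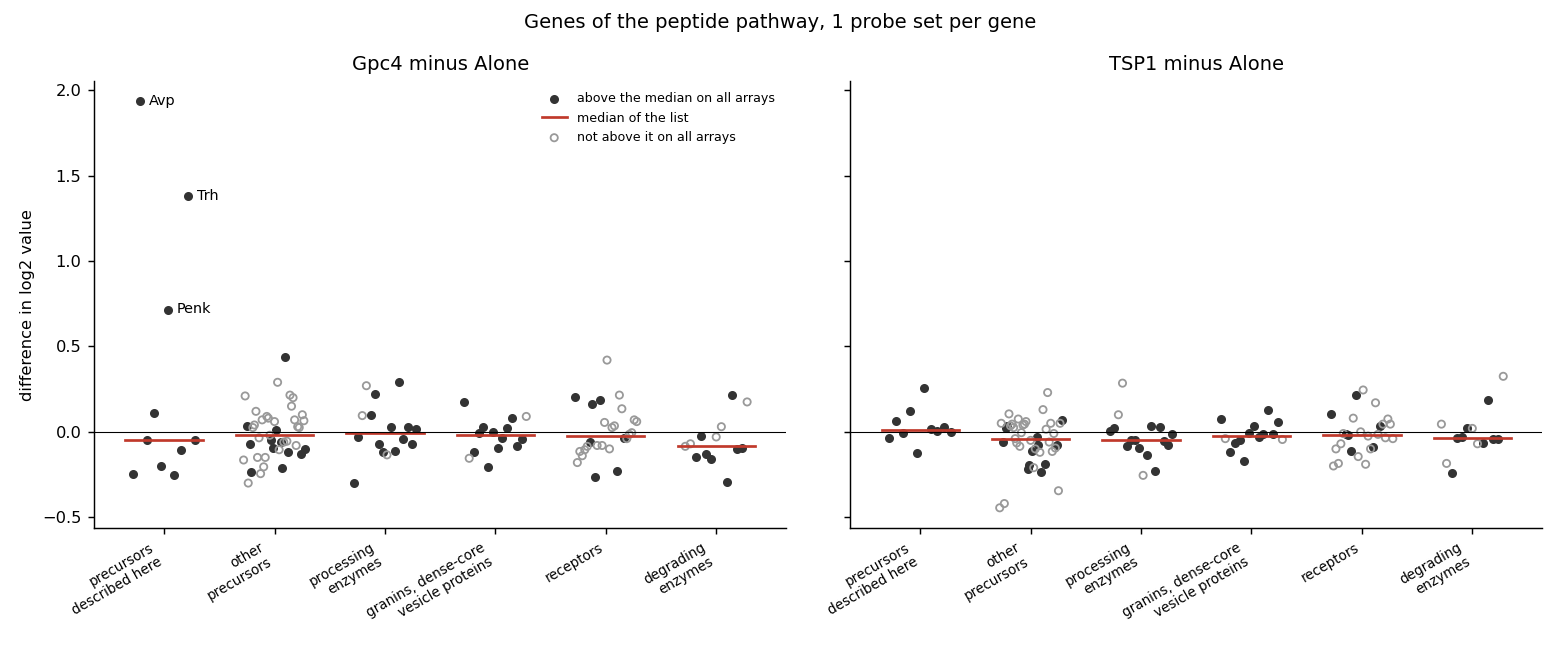
Log2 difference from Alone (vertical axis) of the neuropeptide precursors described here and of 5 pathway lists (horizontal axis), with Gpc4 on the left and TSP1 on the right; each point is 1 probe set for 1 gene, filled where it is above the array median on all 6 arrays, and red lines are list medians. With Gpc4, Avp (1.94), Trh (1.38) and Penk (0.72) lie above every other point, of which the highest is Pdyn at 0.44.

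Markers of other cell types were set beside the Gpc4 values, and the sums of some of them were higher with Gpc4 too, although none of these markers passed against Alone. The summed linear signal of 10 astrocyte and Müller glia markers, of which 2 were bright, was 1631 and 1656 with Gpc4, 1478 and 1563 with TSP1 and 1261 and 1403 in Alone. That of 6 endothelial and pericyte markers, of which 1 (Kdr) was bright, was 324.3 and 342.3 with Gpc4, 204.7 and 207.5 with TSP1 and 209.7 and 253.7 in Alone. Microglial sums overlapped, at 237.5 and 260.8 with Gpc4, 223.3 and 275.6 with TSP1 and 213.4 and 279.2 in Alone. The bright members Kdr and Glul carried much of the higher sums: Kdr was 7.93 with Gpc4 and 7.10 in Alone (difference 0.83, limma adjusted p = 0.273) and Glul 10.28 with Gpc4 and 9.89 in Alone (difference 0.40, limma adjusted p = 0.558). These are the probe sets of highest mean. The other Glul probe sets gave smaller differences, 0.18 and 0.08, and a dim second Kdr probe set gave -0.02. The dim markers Gfap, at 5.58 with Gpc4 and 5.27 in Alone, and Pecam1, at 3.66 with Gpc4 and 3.44 in Alone, were higher by 0.31 and 0.22. Other markers of the same lists were lower with Gpc4 than in Alone. The differences ran from -0.175 (Pax2) to 0.525 (Fgfr3) in the glial list, with a median of 0.11. In the endothelial and pericyte list they ran from -0.25 (Pdgfrb) to 0.83 (Kdr), with a median of 0.10. Between Gpc4 and TSP1, none of these markers passed without the replicate block, but with it 3 passed as higher with Gpc4: Kdr by 1.13 (limma adjusted p = 0.0171), and the fibroblast markers Lum by 1.95 (limma adjusted p = 0.00865) and Dcn by 1.77 (limma adjusted p = 0.0262). Against Alone, Lum differed by 0.31 with Gpc4 and by -1.635 with TSP1, and Dcn by 0.275 and -1.49 in that order. Between Gpc4 and TSP1, the remaining fibroblast markers differed by 0.055 (Col1a1), -0.05 (Col1a2), -0.015 (Col3a1) and 1.355 (Pdgfra). The part of these cells in the Avp and Trh signals was not tested.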

How the data were processed

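mRNA was measured in RGCs on 6 Affymetrix rat genome arrays, 2 each for Gpc4, TSP1 and Alone, and all were used. The authors used Affymetrix Expression Console, whose version is not given in the sources used here, on the scans. The deposited values are log2 RMA values, already background-corrected, normalized between arrays and summarized per probe set, and they are rounded to 2 decimals. These values were used as they are. Precision is limited by the number of arrays.

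Groups were compared in R 4.3.3 with limma 3.58.1 (eBayes after lmFit, all 6 arrays, two-sided, Benjamini-Hochberg over 31042 probe sets, adjusted p under 0.05, 3 residual degrees of freedom). The test was tested on simulated data. The methods state 2 separate cultures, and arrays with the same number deviated together (correlations across probe sets of 0.29, 0.35 and 0.37). The replicate number was therefore read as the culture and used as a block in an alternative fit, which also gave the culture difference. Whether a shared number marks a culture or another batch was not tested. Alternatives were quantile normalization, median centring, a filter at a mean of 6 (log2), a trended variance, the 2 groups alone, an adjusted p under 0.10, the methods' t-test (probe sets with no spread left out), gene means and leaving out each array.

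In the platform annotation 20826 probe sets have a single symbol, 436 several and 9780 none. All 10 symbols were found in the RefSeq GRCr8 tables. The neuropeptide genes, pathway lists and marker lists were chosen with earlier results of these data known. Of each list, genes that passed, the 3 with the largest difference with Gpc4 and the 3 with the highest mean were to be named, and for precursors that span at least 1 on the log2 scale the 5 genes of highest r. The culture comparison, the neighboring genes, the motifs and other genes outside this rule were chosen after the values were seen. Figures were drawn with matplotlib 3.10.9. Paper experiments other than the arrays were not analysed here.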

Additional observations from a re-analysis of the deposited data

Results flagged for a closer look

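For Avp and Trh the difference between Gpc4 and TSP1, the 2 added proteins, stood out. It was 1.87 on the log2 scale for Avp and 1.35 for Trh, higher with Gpc4 in both cultures, while the difference between TSP1 and Alone was 0.07 and 0.03. Both genes were selected with their Gpc4 values known, so this is a description of these 6 arrays.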

How the results depend on the processing

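Between Gpc4 and Alone the count of neuropeptide precursor probe sets that passed was 2, and it was 1 (Avp) when only these 2 groups were fitted and 0 by the methods' t-test with Benjamini-Hochberg adjustment, which leaves 2 degrees of freedom. Between Gpc4 and TSP1 it was 2, and 0 by that adjusted t-test. Leaving out 1 array gave 0 to 1 between Gpc4 and Alone (Trh without Alone replicate 1, Avp without Alone replicate 2 or without either TSP1 array, and 0 without either Gpc4 array), 0 to 0 between TSP1 and Alone, and 0 to 2 between Gpc4 and TSP1 (0 without any 1 of the Gpc4 or TSP1 arrays). With the replicate block the counts were 3, 0 and 2 in the order of the comparisons just given, with or without the filter at a mean of 6 (log2), and Penk between Gpc4 and Alone was the only one of the 11 probe sets whose call the block changed. The differences of Avp, Trh and Penk kept their sign in all 6 fits that left out 1 array: 1.80 to 2.07, 1.23 to 1.54 and 0.52 to 0.92 for Gpc4 against Alone, and 1.73 to 2.01, 1.30 to 1.41 and 0.26 to 0.66 for Gpc4 against TSP1.

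Signs turned only for small differences. For TSP1 against Alone, Cartpt was 0.005 after median centring and the first Adcyap1 probe set 0.02 as a mean over the gene's probe sets. Leaving out 1 array turned, for Gpc4 against Alone, Cartpt (-0.135 to 0.035), Gal (-0.03 to 0.25) and Npy (-0.465 to 0.065). Between Gpc4 and TSP1 it turned Cartpt (-0.115 to 0.025), Gal (-0.07 to 0.05) and Npy (-0.22 to 0.07). For TSP1 against Alone it turned Sst (-0.025 to 0.055), Cartpt (-0.09 to 0.08), Adcyap1 (-0.175 to 0.105 and -0.085 to 0.235), Trh (-0.125 to 0.185), Tac1 (-0.02 to 0.03), Gal (-0.02 to 0.26), Npy (-0.39 to 0.14) and Avp (-0.075 to 0.205). The cause was not tested. With 1 array left in a group, its spread was assumed to be that of the other groups. The 2 arrays a group limit what can be seen, and no detection call separates dim signals from background.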
